A study of Mus musculus with 6 samples.

Results

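Desmosome genes were compared between 4T1 and 4TO7, a pair of mouse mammary carcinoma lines from the BALB/c strain whose cultures were profiled by RNA sequencing of total RNA. The members were the rows of the deposited table whose symbol was Dsp, Dsc2, Dsg2, Jup, Pkp1, Pkp2, Pkp3, Pkp4, Ppl or Evpl, and all 10 were found among 47729 genes. Each line had 3 libraries from untreated cells in medium with fetal bovine serum. The labels give no genotype, allele, batch or passage for either line, and each line is a single established line. Nothing in the labels says that the libraries of a line came from separate cultures, so p-values measure only the spread between these libraries, which may be technical. As background, 4T1 is a metastatic line, and 4TO7, a related line, leaves the mammary tumour but rarely grows out in distant organs.

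Desmosomes are spot-like junctions that fasten the keratin filaments of neighbouring epithelial cells to each other. Desmogleins and desmocollins, the desmosomal cadherins, bind across the gap between cells. Inside the cell the armadillo proteins plakoglobin and plakophilins join the cadherin tails to desmoplakin, which holds the filaments. In the mammary gland desmosomes connect the cells of the epithelium, and some plaque proteins also work outside desmosomes.

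Depth was 33605566 to 39072639 reads assigned to genes per library, recovered from the deposited values. Values below are normalised counts, reads divided by 1 size factor per library (0.954 to 1.07), given as mean ± SD with n = 3 per line, or library by library in the order of replicates 1, 2 and 3. Every pair of replicates differed by more than sampling noise, with a chi-square of 23.9 to 117 per gene. 4TO7 replicate 2 stood apart from 4TO7 replicates 1 and 3 (99.7 and 117 per gene, against 23.9 between replicates 1 and 3). 4T1 replicate 1 stood apart to a lesser degree, at 80.5 and 75.1 per gene against 40.9 between 4T1 replicates 2 and 3. For the members, values without each of these 2 libraries stand beside the main ones. Among the epithelial markers Cdh1, Epcam, Krt8 and Krt18, Krt8 and Krt18 were abundant in both lines. Cdh1, the epithelial cadherin, had 19351 ± 2121 in 4T1 and 169.7 ± 44.6 in 4TO7, and Epcam had 16980 ± 1871 and 23.7 ± 9.25, so these 2 defining markers were low in 4TO7. Markers of leukocytes summed to 0.936 to 6.97 normalised counts in all libraries of either line, with Cd3e at 0. Endothelial markers summed to 27.9 to 68.6 in 4T1 and 57.7 to 77.6 in 4TO7. Fibroblast markers summed to 590 to 1372 in 4T1 and 1721 to 7522 in 4TO7, nearly all of it Pdgfra, and Lum was at 0; their part in the results was not tested.

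4TO7 lacked nearly all transcripts of the desmosomal cadherins and of desmoplakin, had reduced levels of plakoglobin and of plakophilins 2, 3 and 4, and had more plakophilin 1 than 4T1. All 10 members passed the low-value filter (3 or more libraries reaching a normalised count of 10) and were tested with limma over 14276 genes at an adjusted p of 0.05. Of these, 7 were higher in 4T1 (Dsp, Dsc2, Dsg2, Jup, Pkp2, Pkp3 and Pkp4), where 25.1% of all genes tested were called in that direction. Pkp1 alone was higher in 4TO7, a direction called in 23.9% of genes, and Ppl and Evpl were not called. The counts were 7 and 1 by edgeR (23.4% and 25.5% of genes) and 8 and 1 by DESeq2 (25.5% and 25.7%), which added Evpl. Dsp, Dsc2 and Dsg2 passed the filter through 4T1 alone, so the filter favours their direction and they add nothing to the count. Of the 7 members that passed in both lines, 4 were higher in 4T1 and 1 in 4TO7, beside 23.6% and 22.2% of the 12206 genes that did so. The 3 libraries of 4T1 lay wholly above those of 4TO7 in 8 members (29.8% of genes tested) and wholly below in 1 (28.7%). The 8 include Dsp, Dsc2 and Dsg2, whose direction the filter favours, and otherwise were Jup, Pkp2, Pkp3, Pkp4 and Evpl. The share without overlap among genes that passed in both lines was not computed, so this count is a description only. The median log2 fold change of the members, 4T1 minus 4TO7, was 1.56, and 0.74 over the 7 members that passed in both lines, against 0.03 over all genes tested.

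**Figure D1:**
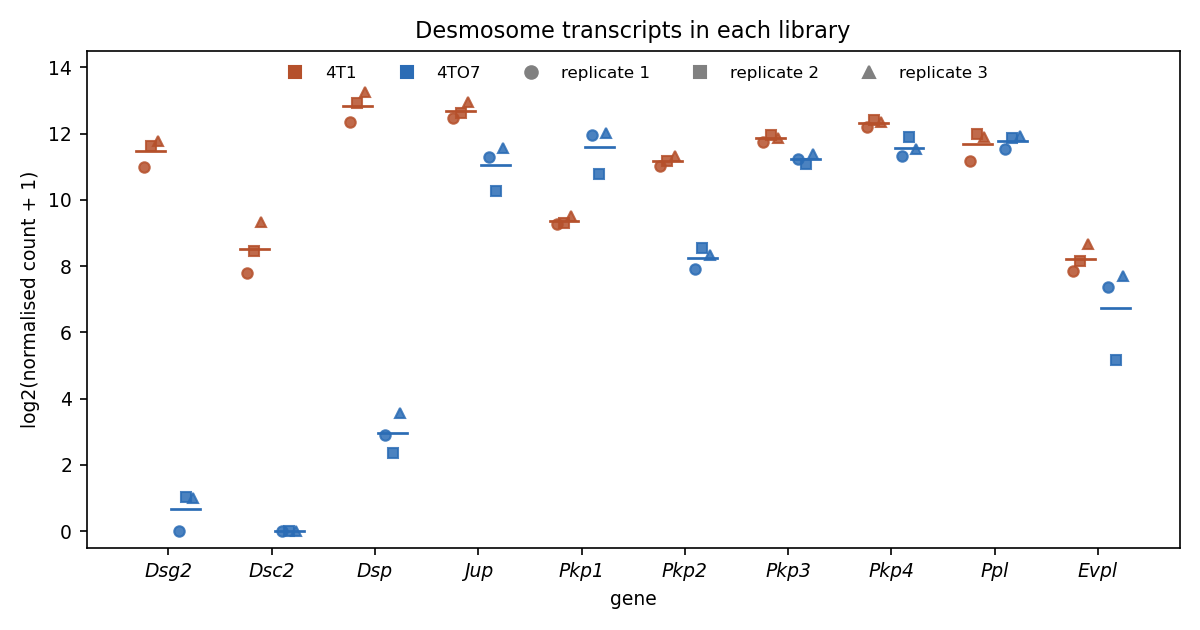
Level of each desmosome gene in every library, as log2(normalised count + 1), with 4T1 in red-brown, 4TO7 in blue, a symbol per replicate and a bar at the mean of each line. Dsg2 and Dsc2 lie near 0 in 4TO7 and Dsp lies next above them. Pkp1 is higher in 4TO7, and Ppl overlaps between the lines.

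Desmosomal cadherin reads came almost wholly from 4T1. Dsg2, desmoglein 2, the desmoglein of simple epithelia (ENSMUSG00000044393, chromosome 18, 20558074 to 20604521, GRCm38), had 2026, 3186 and 3531 normalised counts in 4T1. In 4TO7 it had 0 reads in replicate 1 and 1 read in each of replicates 2 and 3. The line totals of 8864 and 2 reads gave a ratio of 4428 (exact 95% interval 1225 to 36566, counting error only). On the log2(value + 1) scale the fold change was 10.79 ± 0.36 (SE; adjusted p = 2.21e-07), and it was 10.97 without 4TO7 replicate 2 and 11.04 without 4T1 replicate 1.

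Dsc2, desmocollin 2, which pairs with Dsg2 in simple epithelia (ENSMUSG00000024331, chromosome 18, 20030633 to 20059554), had 219, 348 and 638 in 4T1 against 0 reads in each 4TO7 library. It was at least 409-fold higher in 4T1, taking 3 reads over the 4TO7 libraries as the floor (adjusted p = 1.22e-06). Its fitted log2 fold change, 8.52 with all libraries, was 8.52 without 4TO7 replicate 2 and 8.88 without 4T1 replicate 1. Within 4T1 it was the most variable member, with a coefficient of variation of 53.5%. Of the reads of Dsc2 and Dsg2 per coding kilobase, Dsc2 held 11.8%, 11.9% and 18.3% in 4T1. Dsg2 thus held the larger share of this pair in each 4T1 library.

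The other desmosomal cadherins had few or no reads in either line. Summed over the 9 desmoglein and desmocollin genes (Dsc1 to Dsc3, Dsg1a, Dsg1b, Dsg1c, Dsg2, Dsg3 and Dsg4), 4T1 had 2227, 3554 and 4328 reads, and each 4TO7 library had 1 read. In all, 4TO7 had 3 cadherin reads among 104742527, of which 2 were Dsg2 and 1 was Dsc3, while 4T1 had 10109 among 114704105. Dsg3, a desmoglein of stratified epithelia, had 18 reads over the 4T1 libraries and 0 in 4TO7. Dsc1, Dsg1a, Dsg1b, Dsg1c and Dsg4 had 0 reads in both lines, where Dsg1a, Dsg1b and Dsg1c are close copies whose shared reads may be lost in counting. In bulk RNA, fewer cells that express a gene and less RNA per cell cannot be told apart.

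Dsp encodes desmoplakin, the plakin that ties the plaque to keratin filaments (ENSMUSG00000054889, chromosome 13, 38151294 to 38198577, plus strand). It had 5166, 7744 and 9733 normalised counts in 4T1 against 6.55, 4.19 and 10.9 in 4TO7. Every 4TO7 library lay far below every 4T1 library, with 22 reads in the whole of 4TO7 against 22974 in 4T1. The means differed by 1044-fold (1209-fold without 4T1 replicate 1 and 863-fold without 4TO7 replicate 2), or 9.88 on the log2 scale with an SE of 0.35 (adjusted p = 2.66e-07). Dsp shares exon bases with Gm10129, a transcript annotated on the opposite strand, and Dsg2 with the antisense gene Gm16090. Those rows held at most 5.98 and 2.99 normalised counts in any library.

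RefSeq promoter windows (GRCm38.p6) run from 250 bases before to 50 after the start of transcription. They are shown for 3 of the 10 members, Dsp, Jup and Pkp4, with a pair of windows for Pkp4. Windows of the other members, Dsc2 and Dsg2 among them, are not shown, which does not mean that none exist. The 3 genes shown were all higher in 4T1 but to very different degrees, from near absence in 4TO7 (Dsp) to a modest difference (Pkp4). Each is read 5′ to 3′ on the strand of the gene, and capitals mark matches on either strand to CAGGTG, the E-box form bound by Zeb and Snail repressors, or to GGGGCGGGG, a GC box of Sp and Klf factors.
Dsp, chr13:38151044-38151343, plus strand: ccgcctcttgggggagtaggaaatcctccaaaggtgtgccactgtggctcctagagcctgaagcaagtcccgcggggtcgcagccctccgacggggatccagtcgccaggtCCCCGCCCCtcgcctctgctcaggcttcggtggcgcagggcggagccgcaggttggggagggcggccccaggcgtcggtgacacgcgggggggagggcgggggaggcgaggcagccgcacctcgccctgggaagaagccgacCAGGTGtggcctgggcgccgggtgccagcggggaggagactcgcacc
Jup, chr11:100397741-100398040, minus strand: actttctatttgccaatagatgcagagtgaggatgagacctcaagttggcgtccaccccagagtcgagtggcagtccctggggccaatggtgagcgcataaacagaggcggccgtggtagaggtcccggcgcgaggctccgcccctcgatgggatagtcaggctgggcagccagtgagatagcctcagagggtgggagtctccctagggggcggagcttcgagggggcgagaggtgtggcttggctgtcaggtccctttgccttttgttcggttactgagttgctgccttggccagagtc
Pkp4 upstream start, chr2:59160600-59160899, plus strand: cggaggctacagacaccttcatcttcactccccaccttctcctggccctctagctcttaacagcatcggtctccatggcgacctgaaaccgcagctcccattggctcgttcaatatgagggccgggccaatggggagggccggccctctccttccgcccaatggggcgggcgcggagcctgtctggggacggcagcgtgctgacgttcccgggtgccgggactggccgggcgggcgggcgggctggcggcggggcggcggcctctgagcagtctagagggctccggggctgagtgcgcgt
Pkp4 downstream start, chr2:59161619-59161918, plus strand: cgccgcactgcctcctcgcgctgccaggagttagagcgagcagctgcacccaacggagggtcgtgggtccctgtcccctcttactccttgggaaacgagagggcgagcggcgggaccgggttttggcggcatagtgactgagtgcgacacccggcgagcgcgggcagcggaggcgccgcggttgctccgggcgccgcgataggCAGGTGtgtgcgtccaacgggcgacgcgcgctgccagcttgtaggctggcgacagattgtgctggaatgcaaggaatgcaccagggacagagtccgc
The Dsp window held CAGGTG from base 4 after the start, and the GC box on the other strand from base -139. The downstream Pkp4 window held CAGGTG from base -47, and the Jup and upstream Pkp4 windows held no match to these motifs. The last bases of the downstream Pkp4 window were not found in a GENCODE transcript of the gene, while those of the other windows were, so that start is less certain. Of 32851 windows of this length in the table, 20.2% held CAGGTG and 11.4% held GGGGCGGGG. The 4 windows shown had 60.7% to 73% G and C, against a median of 52.7% over all windows. The background shares are therefore not matched for base composition. None of the 4 windows matched AACCGGTT, the Grhl motif (0.146% of windows), or TGANTCA, the AP-1 motif (7.81%). These matches describe letters and not binding.

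Jup encodes plakoglobin, the armadillo protein shared by desmosomes and adherens junctions (ENSMUSG00000001552, chromosome 11, 100368958 to 100397763, minus strand). It had 5670, 6354 and 7898 in 4T1 against 2530, 1237 and 3038 in 4TO7, with 4TO7 replicate 2 the lowest library. The mean in 4TO7 was 34.2% of that in 4T1, a 2.93-fold difference (log2 scale 1.63, SE 0.31, adjusted p = 0.00319). Without 4TO7 replicate 2 the fold was 2.39, and without 4T1 replicate 1 it was 3.14. Its close relative Ctnnb1, beta-catenin, had 44118 ± 6127 in 4T1 and 31183 ± 4606 in 4TO7 (adjusted p = 0.0304), a call lost under 7 of 17 alternatives, among them the omission of 4T1 replicates 2 or 3 (adjusted p = 0.0887 or 0.113) and of 4TO7 replicates 1 or 2 (0.0867 or 0.0535). Of the reads of Jup and Ctnnb1 per coding kilobase, Jup made up 13.7% ± 0.80 in 4T1 and 6.93% ± 2.00 in 4TO7, and the lines did not overlap. The two-sided exact permutation test gave p = 0.1, the smallest that 3 against 3 allows, and 0.133 after adjustment over the 8 family shares tested.

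Plakophilins, which cluster cadherins and desmoplakin at the plaque, did not move together. Pkp1, the plakophilin typical of stratified epithelia (ENSMUSG00000026413, chromosome 1, 135871395 to 135919207), had 614, 627 and 735 in 4T1 against 3986, 1745 and 4175 in 4TO7. All 4TO7 libraries were above all 4T1 libraries, and 4TO7 replicate 2 was again the lowest of its line. Pkp1 was 5.01-fold higher in 4TO7 (6.20-fold without 4TO7 replicate 2, 4.85-fold without 4T1 replicate 1), or -2.23 on the log2 scale with an SE of 0.31 (adjusted p = 0.000664).

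Pkp2, the plakophilin of simple epithelia and heart muscle (ENSMUSG00000041957, chromosome 16, 16213318 to 16272712), went the other way. It had 2067, 2331 and 2566 in 4T1 against 239, 374 and 319 in 4TO7. The 4TO7 mean was 13.4% of the 4T1 mean, a 7.47-fold difference (log2 fold change 2.92 ± 0.20, SE; adjusted p = 9.17e-06). It was the member with the largest fold among those that passed the filter in both lines.

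Pkp3, a plakophilin of most epithelia (ENSMUSG00000054065, chromosome 7, 141078218 to 141090510), differed less. It had 3418, 4003 and 3757 in 4T1 against 2406, 2166 and 2655 in 4TO7, 1.55-fold higher in 4T1 (adjusted p = 0.00583). Pkp4, also called p0071, which is found at adherens junctions as well as desmosomes (ENSMUSG00000026991, chromosome 2, 59160850 to 59355208), had 4695, 5482 and 5180 against 2552, 3790 and 2949, 1.65-fold higher in 4T1 (adjusted p = 0.00715). Both were the steadiest members within 4T1, with coefficients of variation of 7.89% for Pkp3 and 7.75% for Pkp4. Without 4TO7 replicate 2 the folds were 8.32 for Pkp2, 1.47 for Pkp3 and 1.86 for Pkp4, and without 4T1 replicate 1 they were 7.88, 1.61 and 1.72. The calls of Pkp3 and Pkp4 held in each of the 17 alternatives, and the lines did not overlap for either gene.

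The mix of plakophilins was also compared, as the share of each gene within the family. Of plakophilin reads per coding kilobase, Pkp1 made up 7.41%, 6.58% and 7.77% in 4T1 against 51.0%, 27.9% and 48.9% in 4TO7. The Pkp2 share was 23.4% ± 1.31 in 4T1 and 3.90% ± 1.41 in 4TO7, and the Pkp3 share was 35.4% ± 1.00 and 27.8% ± 1.88. These 3 shares did not overlap between lines, each with an exact permutation p of 0.1, the smallest the design allows (0.133 adjusted over 8 shares). The Pkp4 share was 34.0% ± 0.85 in 4T1, inside the 19.7% to 36.6% seen in 4TO7 (exact permutation p = 0.4, 0.457 adjusted).

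**Figure D2:**
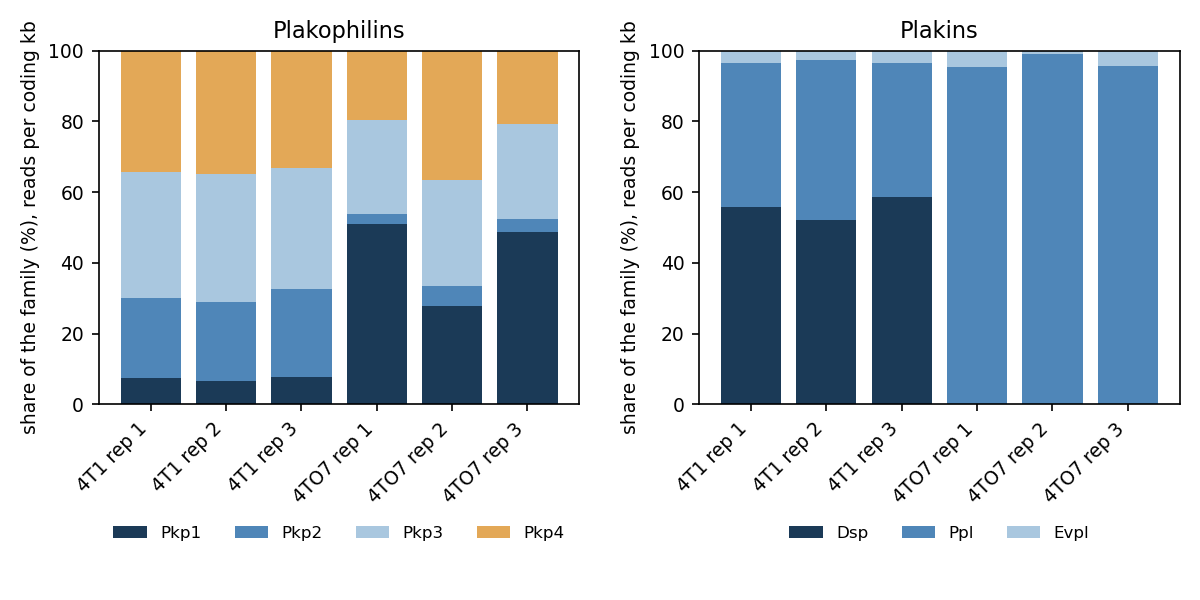
Share of each gene among the plakophilins (left) and among Dsp, Ppl and Evpl (right) in every library, in percent of reads per kilobase of coding length, stacked to 100%. Pkp1 takes 27.9% to 51.0% of the plakophilins in 4TO7 and under 8% in 4T1, and Dsp is present in the plakin bars of 4T1 but not visible in those of 4TO7.

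Ppl, periplakin, a plakin of the cornified envelope and of intermediate filament attachment (ENSMUSG00000039457, chromosome 16, 5086291 to 5132421), was the member whose lines overlapped. It had 2293, 4100 and 3835 in 4T1 against 2972, 3761 and 3894 in 4TO7, with 4T1 replicate 1 the lowest library. The log2 fold change was -0.09, with a 95% interval from -0.62 to 0.44 (adjusted p = 0.768), which leaves room for differences of that size in either direction. The ratio of 4T1 to 4TO7 was 0.962 with all libraries. It was 1.12 without 4T1 replicate 1 and 0.993 without 4TO7 replicate 2.

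Evpl, envoplakin, the partner of periplakin (ENSMUSG00000034282, chromosome 11, 116220559 to 116238077), was low in both lines. It had 231, 284 and 407 in 4T1 against 166, 34.6 and 207 in 4TO7. The lines did not overlap, but 4TO7 replicate 2 lay far below the others, and the log2 fold change of 1.48 ± 0.61 (SE) was not called (adjusted p = 0.0745). The mean was 2.27-fold higher in 4T1, 2.55-fold without 4T1 replicate 1, 1.65-fold without 4TO7 replicate 2 (log2 fold change 0.69, adjusted p = 0.0551) and 3.07-fold without 4TO7 replicate 3, where it was called (0.0326). In the authors' deposited table its adjusted p was 0.0498, and that of Ppl was 0.900. The authors' deposited table had the other 8 members under 0.05, in the same directions.

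Within the plakins, Dsp made up 55.5% ± 3.29 of reads per coding kilobase in 4T1 and 0.119% ± 0.0486 in 4TO7. Ppl made up 41.3% ± 3.70 and 96.6% ± 2.18, and both differences had an exact permutation p of 0.1, the smallest possible (0.133 adjusted). The Evpl share was 3.24% ± 0.46 in 4T1 and 3.25% ± 2.13 in 4TO7 (exact permutation p = 1).

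**Figure D3:**
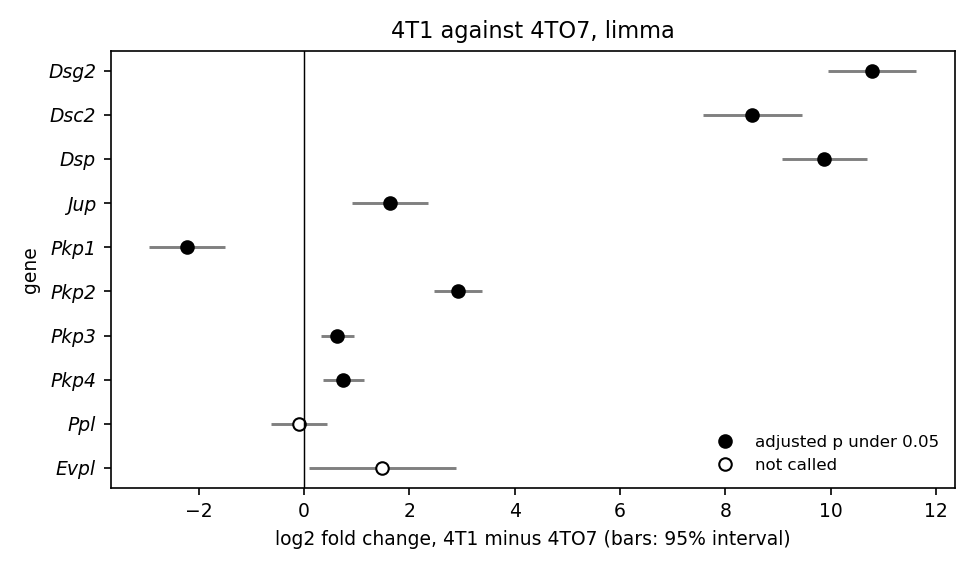
Log2 fold change of each desmosome gene, 4T1 minus 4TO7, on the log2(normalised count + 1) scale, with 95% intervals from limma. Filled circles passed an adjusted p of 0.05 over all genes; Evpl, at 1.48, has an unadjusted interval above 0 but was not called after adjustment.

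Compared per coding kilobase, the order of the members differed between the lines. In 4T1, Jup was highest at 2971 ± 511 normalised counts per coding kilobase, above Pkp3 (1472 ± 116) and Pkp4 (1415 ± 110), whose ranges overlapped. Pkp2, Dsp, Dsg2 and Ppl followed at 973, 873, 845 and 648, each overlapping the next, and then Pkp1, Dsc2 and Evpl at 302, 144 and 50.4, with no overlap between neighbours. In 4TO7, Pkp1 was highest at 1512 ± 619, but Pkp1, Jup, Pkp3, Pkp4 and Ppl (673 ± 94.7) each overlapped the next in order. Pkp2 (130 ± 28.6), Evpl (22.2 ± 14.7) and Dsp (0.836 ± 0.40) followed without overlap. With the length of all exons in place of coding length, an order computed after the data were seen, Jup and Pkp3 overlapped at the top in 4T1 (1032 and 1030.5 per exon kilobase). On that scale Pkp3, at 666, and Pkp1, at 657, led in 4TO7 and Jup came after Pkp4 and Ppl, so the first places in 4TO7 depend on the length used. Dsp, Dsg2 and Dsc2 came last in 4TO7 with either length.

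Libraries of a line differed from each other in several members. In 4TO7 replicate 2, Evpl, Pkp1 and Jup deviated from the mean of the line by -1.59, -0.82 and -0.78 on the log2(value + 1) scale. Pkp4 and Pkp2 lay above it by 0.31 and 0.29. Dsp (-0.58, on 4 reads) and Dsg2 (0.36, on 1 read) had too few reads there to tell a deviation from counting error. In 4T1 replicate 1 all 10 members lay below the mean of the line. Deviations there were -0.73, -0.53, -0.50 and -0.48 for Dsc2, Ppl, Dsp and Dsg2, and -0.10 for Pkp1. The share of all genes tested that lay below the mean in this library was not computed, so this count is a description only. 4TO7 replicate 2 was low too for the hemidesmosome integrin Itgb4 (1486 against 4527 and 4953) and for the fibroblast marker Pdgfra (1706 against 6700 and 7452 in replicates 1 and 3), which was 5.89-fold higher in 4TO7 with all libraries and 7.89-fold without this one. The part of these library differences in the comparisons was not tested beyond leaving each library out.

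**Figure D4:**
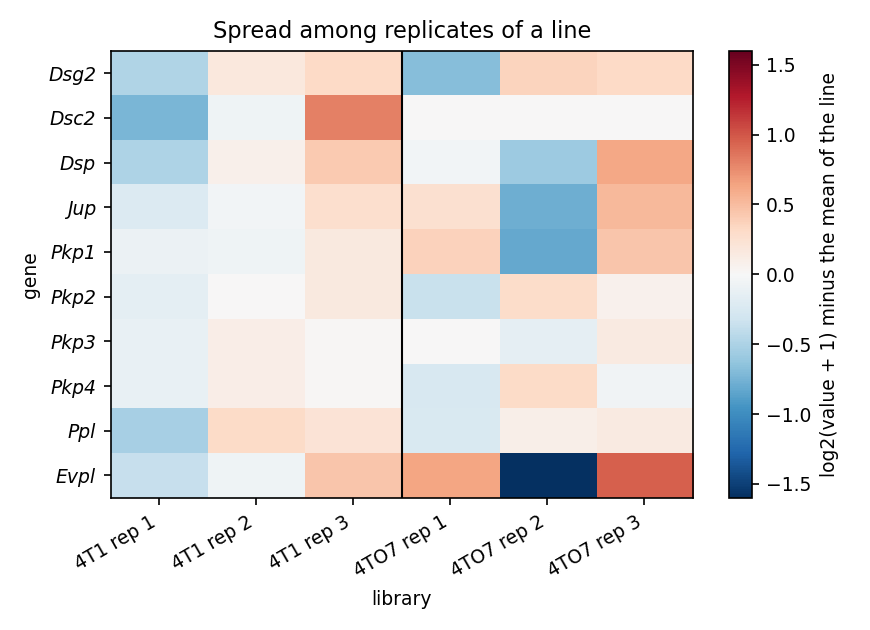
Deviation of every library from the mean of its own line, log2(value + 1), for each desmosome gene, with blue below and red above the mean. 4TO7 replicate 2 is low for Evpl, Pkp1 and Jup and slightly high for Pkp2 and Pkp4. Dsp, low there, and Dsg2, high there, rest on 4 reads and 1 read. 4T1 replicate 1 is below the mean for all 10 members, a count not compared with all genes.

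Other parts of the desmosome and the structures it joins were read from lists, described by counts beside the 25.1% and 23.9% of all genes called. Of 10 further desmosome components, 3 were tested and called higher in 4T1, but Kazn and Pof1b passed the filter through 4T1 alone, which favours that direction, and Perp alone passed in both lines. Perp, a membrane protein needed for desmosome assembly in mouse epidermis, had 5789 ± 533 in 4T1 and 504 ± 98.03 in 4TO7, an 11.5-fold difference (log2 fold change 3.53 ± 0.18, SE; adjusted p = 1.52e-06). Kazn, kazrin, which binds periplakin, had 192 reads in 4T1 and 1 in 4TO7 (ratio 192, exact 95% interval 34.0 to 7615). Pof1b, an actin-binding protein of epithelial junctions, had 43.6 ± 19.1 and 3.25 ± 1.31. The other 7 were the cadherins given above.

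Among relatives of the members and hemidesmosome genes, the called differences were small. Of 4 armadillo relatives, 2 of the 3 tested were higher in 4T1, namely Ctnnb1 and Ctnnd1, p120-catenin, which stabilises cadherins at the membrane (2579 ± 87.2 against 1598 ± 55.2, 1.61-fold; adjusted p = 0.00216). None of the 3 other plakins tested, Plec, Dst and Macf1, was called by limma (0 at an unadjusted p under 0.05, and 0 by edgeR or DESeq2), and adjusted p ranged from 0.132 for Dst to 0.304 for Macf1. Plec, plectin, which links filaments to hemidesmosomes, had 14227 ± 2030 in 4T1 and 18216 ± 4180 in 4TO7. Of 4 hemidesmosome genes, which anchor keratin to the basement membrane side, only the tetraspanin Cd151 was called, 1.53-fold higher in 4TO7 (adjusted p = 0.00519). The integrin subunits Itga6 (11835 ± 2631 against 12095 ± 2542) and Itgb4 (6607 ± 542 against 3655 ± 1891) were not called. Itgb4 was 1.81-fold higher in 4T1 and its lines did not overlap (limma, unadjusted p = 0.0336, adjusted p = 0.0648). In the replicate block and without any 1 of the 4TO7 libraries, 1 gene of this list was called higher in 4T1.

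The filaments that desmoplakin binds were read next. Of 13 intermediate filament genes 8 were tested, and 3 of these, Krt14, Krt17 and Krt19, passed the filter through 4T1 alone. Of the 5 that passed in both lines, Krt7, Krt8, Krt18 and Nes were higher in 4T1 and Vim was not called. Krt7 had 42229 ± 3719 and 13.6 ± 4.66, Krt19 had 4719 ± 1215 and 1.29 ± 1.12, and Krt14 had 4140 reads in 4T1 and 1 read in 4TO7. The simple keratin pair remained in 4TO7, with Krt8 at 21578 ± 3811 and Krt18 at 13535 ± 4763, which were 2.20-fold and 4.64-fold below 4T1. Vim, vimentin, which desmoplakin also binds, had 112404 ± 8646 and 97123 ± 9632 and was not called (adjusted p = 0.198).

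Genes of the cornified envelope, the structure that periplakin and envoplakin help to build in stratified epithelia, were almost unread. Of 13 such genes, 12 stayed below the filter, and Ivl, involucrin, had 4 reads in 4T1 and 0 in 4TO7. Lor, Flg, Cnfn, Sprr3 and Krt1 had 0 reads in both lines. Krt10 was the 1 gene tested, at 107 ± 13.2 in 4T1 and 32.4 ± 1.49 in 4TO7 (3.31-fold; adjusted p = 0.000621).

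Of 16 genes of desmosome assembly and turnover, 4 were called for 4T1 and another 4 for 4TO7 (median log2 fold change 0.22), 25% each way, which is near the 25.1% and 23.9% of all genes. Golga7, a subunit of a palmitoyl transferase complex, was 2.10-fold higher in 4T1 (3023 ± 224 against 1439 ± 212; adjusted p = 0.000606). Adam10, a protease that sheds desmogleins and other cadherins, was 2.01-fold higher in 4TO7 (14362 ± 1530 against 7134 ± 1579; adjusted p = 0.00235). Prkca, the kinase known to loosen desmosomal adhesion, was 1.59-fold higher in 4TO7 (adjusted p = 0.00496).

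Of 14 transcription factors of epithelial state 12 were tested, and 6 of these passed the filter through 4T1 alone, of which 5 were called for 4T1 (Grhl1, Grhl3, Ovol1, Ovol2 and Twist1). Of the 6 that passed in both lines, Grhl2 and Klf5 were higher in 4T1 and 3 in 4TO7. Grhl2, an activator of epithelial junction genes, had 2418 ± 160 and 31.9 ± 13.04. Ovol1, a repressor of mesenchymal genes, had 630 reads in 4T1 and 1 in 4TO7, and Twist1, known for driving mesenchymal change, had 3496 and 1. The 3 factors higher in 4TO7 were Klf4, Zeb2 and Snai1. Klf4, a factor of epidermal differentiation, was 5.08-fold higher there (701 ± 47.4 in 4T1 against 3560 ± 1066), and the repressors Zeb2 and Snai1 were 2.63-fold and 1.74-fold higher. Their relatives did not share this direction. Zeb1 had 29.3 ± 11.9 in 4T1 and 14.9 ± 8.07 in 4TO7, passed the filter through 4T1 alone and was not called (limma, adjusted p = 0.113). Snai2, not tested, had 5 reads in 4T1 and 0 in 4TO7.

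**Figure D5:**
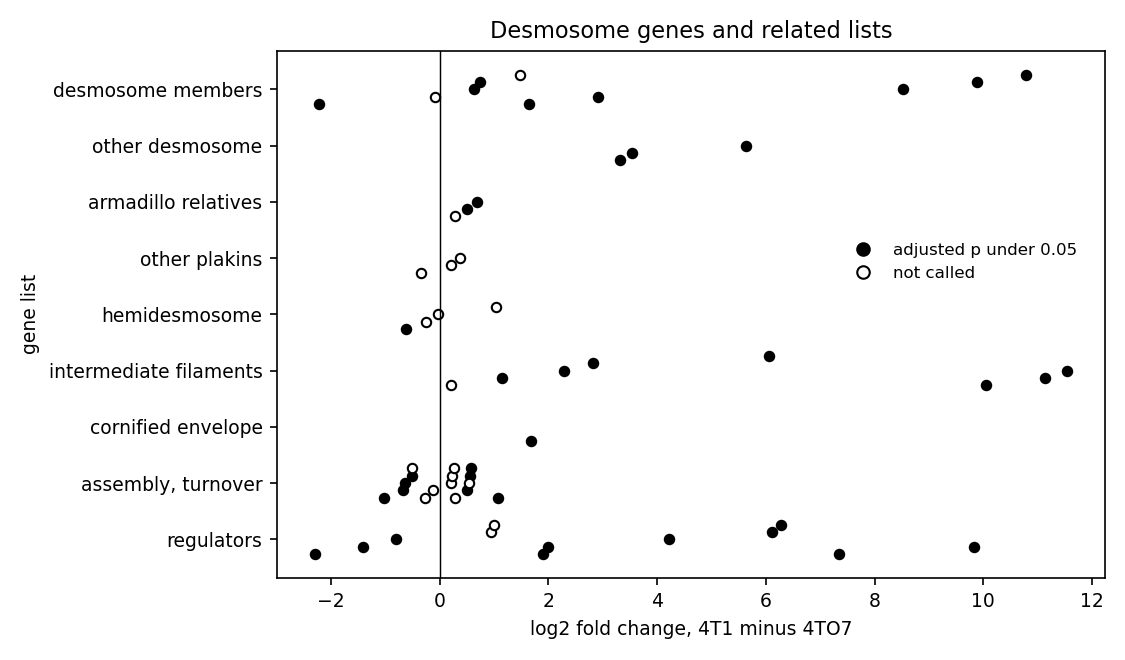
Log2 fold change, 4T1 minus 4TO7, of every tested gene in the desmosome list and 8 related lists, a point per gene, filled where adjusted p was under 0.05. Desmosome members span from -2.23 (Pkp1) to 10.79 (Dsg2), while armadillo relatives, other plakins and hemidesmosome genes lie within about 1 of 0.

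The genes whose profile over the 6 libraries lay closest to that of Dsp, by Euclidean distance between centred log2(value + 1) values, were Adam12, Ctsc, Sorcs2, Epcam and Ptpn22, at distances of 0.564 to 0.764. Adam12, a metalloprotease, had 1380 ± 299 in 4T1 and 1 read in 4TO7. Epcam, the epithelial adhesion molecule, had 72 reads in 4TO7. The measure is dominated by the difference between the lines, and it is given as a description over 6 libraries.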

How the data were processed

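Gene-level values came from 6 RNA-seq libraries, 3 of 4T1 and 3 of 4TO7. The deposited table gives gene signal as reads scaled by a size factor for each library, which the headers and the values show. Per the submitters' processing notes, the tools were STAR 2.5, featureCounts 1.5 and DESeq2, with the GRCm38 build. The annotation release and strand setting are not given in the sources used here. Reads of a gene and of its antisense partner therefore cannot be told apart. The authors' deposited table also holds log2 fold changes (4TO7 over 4T1), a test score, p-values and adjusted p-values.

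All values (100%) were whole multiples of 1 step per library within 1e-06, so reads were recovered. Genes reaching 10 normalised counts in 3 or more libraries were tested on log2(value + 1) with limma 3.58.1 in R 4.3.3 (trend, robust, two-sided, Benjamini-Hochberg, threshold 0.05), which understates changes of genes with few reads. Family shares used exact permutation tests (scipy 1.17.1). Lengths and coordinates are from GENCODE, GRCm38. The exact 95% intervals of read ratios and the floor of 3 reads cover counting error only. The 95% intervals of log2 fold changes come from limma and measure the spread between libraries. edgeR 4.0.16 and DESeq2 1.42.0 on recovered reads, other scalings, filters and pseudocounts, the replicate block and leaving out each library were alternatives. The fits were run on simulated counts that had the same dispersion for every gene and no outlying library. That run checks the code and not how the fits behave with the replicate differences seen here. Eppk1 was not analysed here.

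Members and lists were chosen with earlier results of these data known. Named genes are the members, up to 3 called genes per list with the largest change, and the 5 genes most like Dsp; other genes were named after their values were seen.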

Additional observations from a re-analysis of the deposited data

How the results depend on the processing

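The counts of members called did not move by more than 1 gene in any of the 17 alternatives. From 7 to 8 members were higher in 4T1, and Pkp1 was higher in 4TO7 in each. The eighth was Evpl, called with quantile normalisation (adjusted p = 0.0346), with DESeq2 (0.0492), without 4TO7 replicate 3 (0.0326) and with the replicate block (0.0264). Equal totals per library moved the median log2 fold change of all genes from 0.03 to -0.10, and Pkp3 and Pkp4, the smallest called differences, remained called there at 0.50 and 0.61. The log2 fold change of Dsc2 ranged from 6.21 (pseudocount 5) to 11.64 (edgeR); with 0 reads in 4TO7 it depends on the count added. Whether replicate numbers pair the libraries could not be settled, with correlations of deviations of -0.01, 0.27 and 0.33 for numbers 1 to 3. 4T1 replicates 2 and 3 each correlated best with the 4TO7 library of the same number, whereas 4T1 replicate 1 correlated best with 4TO7 replicate 2 (0.11). The replicate block gave 3990 and 3760 genes, against 3585 higher in 4T1 and 3412 higher in 4TO7. The difference in the share of Evpl among the plakins, -0.00878 percentage points, changed sign without 4T1 replicate 2, 4TO7 replicate 1 or 4TO7 replicate 3 and became 0.258, 0.657 and 0.556; leaving out each library in turn it ranged from -1.24 to 0.657. Small lists moved by 1 or 2 genes. For further desmosome components 1 gene stayed called with a minimum of 50. For armadillo relatives 1 gene stayed under 7 alternatives. Other plakins reached 2 genes higher in 4T1 without 4T1 replicate 1, and 1 higher in 4TO7 with quantile normalisation and with the block. Assembly genes higher in 4TO7 ranged from 2 (no trend, or without 4T1 replicate 1, 4TO7 replicate 1 or 4TO7 replicate 3) to 6 (equal totals or quantile normalisation). Depth limits statements on Dsg2, Dsc2 and Dsp in 4TO7, where a few reads decide the fold.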

Other observations

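Of the markers listed for other cell types, 1 heart muscle marker was abundant. Tnnt2, cardiac troponin T, had 7593 ± 1024 normalised counts in 4T1 and 632 ± 189 in 4TO7, 12.0-fold higher in 4T1. The other heart muscle markers Myh6, Actn2 and Ryr2 had at most 1 read over the libraries of a line. Pkp2, described above as a plakophilin of heart muscle too, was 1 of the 7 members called higher in the same line. Whether this is related to Tnnt2 was not tested. Of the fibroblast markers, Lum had 0 reads, Dcn had 6 reads in 4T1 and 47 in 4TO7, Col1a1 had 31 reads in 4T1 and 13 in 4TO7, and the 2 genes tested, Pdgfra and Pdgfrb, were 5.89-fold and 3.85-fold higher in 4TO7 (limma, adjusted p = 0.00769 and 0.0320). Pdgfrb passed the filter through 4TO7 alone, with 20 reads in 4T1 and 77 in 4TO7, and its lines overlapped. Leaving out each library in turn, its fold ranged from 2.88 (without 4TO7 replicate 3) to 7.16 (without 4T1 replicate 3).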
